A study of Mus musculus with 18 samples.

Results

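The comparison set active AID against its catalytically inactive form in cells that had only their own UNG. It used 6 of the 18 libraries of the series, and in each it covered the 674 of 679 measured reporter positions that had at least 1000 quality-filtered base calls in all 18 libraries. All 6 libraries were made from genomic DNA of NIH-3T3 cells, a mouse fibroblast line, transduced with retroviral vectors for the reporter mOrangeSTOP and with the empty pBABE vector, which is called Control here. The AID group (3 libraries, experiments 1 to 3) also carried AID-ER, which is AID fused to an estrogen receptor domain, and the AID-E58Q group (3 libraries, experiments 1 to 3) carried the inactive AID-E58Q-ER. Both groups were selected with puromycin or hygromycin and kept for 11 days in OHT at 1 µM, which binds the fused domain. The libraries of the other arms, with Ugi or UNG in place of the empty vector, entered the fit of the spread and the comparison at the end. The labels name neither a clone nor a promoter for AID, and the files hold no measure of how much AID the cells made.

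AID, activation-induced cytidine deaminase, turns cytosine in DNA into uracil and starts somatic hypermutation in B cells. It prefers cytosines in the motif WRC (W stands for A or T and R for A or G), above all when a pyrimidine Y (C or T) follows, and it avoids SYC (S is C or G). A uracil that is copied reads as T, so the substitution is C>T, or G>A when the cytosine lay on the other strand. UNG removes the uracil and leaves an abasic site, and copying across that site can place any base, which also gives C>G and C>A. Substitutions at A:T base pairs in B cells need mismatch repair and an error-prone polymerase as well.

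The measured stretch, 679 positions from 45 on (position 1 is the first coding base), has 426 C:G and 248 A:T base pairs among the 674 kept positions. Each C:G pair was read from the strand that carries its C, so a G of the coding strand counts as the C of the other strand. Of the C:G positions, 36 lay in WRCY, 30 in WRC followed by a purine, 139 in SYC and 220 in none of these. The remaining one, G45, is the first base of the stretch and its following base on the C strand was not measured. The motif AGCT is a WRCY on both strands, so each copy offers a G and the next C as targets. Of its 7 copies the last is only measured at G699. The other 6 are shown because AID raised at least 1 substitution at each of their G and C bases (edgeR, adjusted p under 0.05), with the motif in capitals and the coding strand from 5′ to 3′.
AGCT at 149 to 152: gctaAGCTgaag
AGCT at 230 to 233: gcctAGCTgaag
AGCT at 266 to 269: ttcaAGCTgtcc
AGCT at 383 to 386: gtgaAGCTgcgc
AGCT at 512 to 515: ctgaAGCTgaag
AGCT at 578 to 581: gtgcAGCTgccc

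In the 6 libraries 41171193 to 91873261 base calls met the Phred limit of 20, with a median of 58987 to 127614 calls per position. A substitution not seen at a position of median depth could still be present at up to 0.00509% (shallowest library) or 0.00235% (deepest), with 3 counts taken as the bound. Such limits cover counting error only, because PCR products carried no molecular identifiers. The reads at 13 to 15 positions from 45 to 59 reached nearly the same maximum (499049 to 499933) in AID of experiments 2 and 3 and in AID-E58Q of experiment 3, so coverage there and those totals may be too low. Both experiment 3 libraries stood apart in 2 substitutions, with T>G at 7.50 (AID) and 7.78 (AID-E58Q) per 10000 calls and A>C at 4.54 and 4.31. In experiments 1 and 2 the T>G values lay between 0.705 and 1.33. Whether each experiment had its own transduction is not in the labels. The permutation p-values of AID against AID-E58Q reflect no more than the variation among these 6 libraries. The edgeR p-values also rest on the spread of the Ugi and UNG libraries, which entered the same fit. In both cases the variation among libraries may be technical.

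All 6 substitutions at C:G base pairs had higher mean frequencies with AID, while the groups overlapped in all 6 at A:T. G>C stood at 2.65, 1.30 and 3.55 per 10000 calls in the AID libraries of experiments 1, 2 and 3, against 0.711, 0.416 and 0.529 with AID-E58Q. C>G stood at 2.27, 1.35 and 2.70 against 0.995, 0.552 and 0.704. For both substitutions, which are the same change read from opposite strands, every AID library lay above every AID-E58Q library. The ratio of the means was 4.53 for G>C and 2.81 for C>G. The most frequent substitution was G>A, at 9.23 ± 4.48 per 10000 calls (SD, n = 3) with AID and 3.82 ± 0.930 with AID-E58Q. C>T stood at 6.28 ± 2.95 against 2.06 ± 0.716. The remaining pair was less raised, with G>T at 2.76 ± 0.923 against 1.33 ± 0.110 and C>A at 2.09 ± 0.605 against 1.23 ± 0.138. Each of the 6 gave p = 0.1 in an exact two-sided permutation test of 3 against 3 libraries, the smallest value the design allows, and 0.2 after adjustment over the 12 substitutions. Within experiments the AID over AID-E58Q ratios ran from 1.35 (C>A, experiment 2) to 6.70 (G>C, experiment 3).

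The groups overlapped in all 6 substitutions at A:T, which showed no excess of the size seen at C:G. A>G stood at 1.75 ± 0.342 per 10000 calls with AID and 1.55 ± 0.333 with AID-E58Q, and T>C at 1.42 ± 0.260 against 1.38 ± 0.335. A>C and T>G followed the experiment and not the AID form, as given above. The WA motif, the preferred site of the error-prone polymerase in B cells, had 4.92 ± 3.53 substitutions per 10000 calls with AID and 4.57 ± 3.57 with AID-E58Q over 74 positions. At 0 of its 74 positions did all AID libraries lie above all AID-E58Q libraries, and at 1 of the 174 other A:T positions. Over all 674 positions, C:G included, the count was 101 (15%). The count cannot decide whether AID acted at WA. In AID-E58Q of experiment 3, T>G stood at 7.78 per 10000 calls, against 1.33 and 0.831 in AID of experiments 1 and 2. For A>C the values were 4.31 against 0.754 and 0.446. Those AID libraries could thus hardly exceed that AID-E58Q library at A:T positions.

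**Figure D1:**
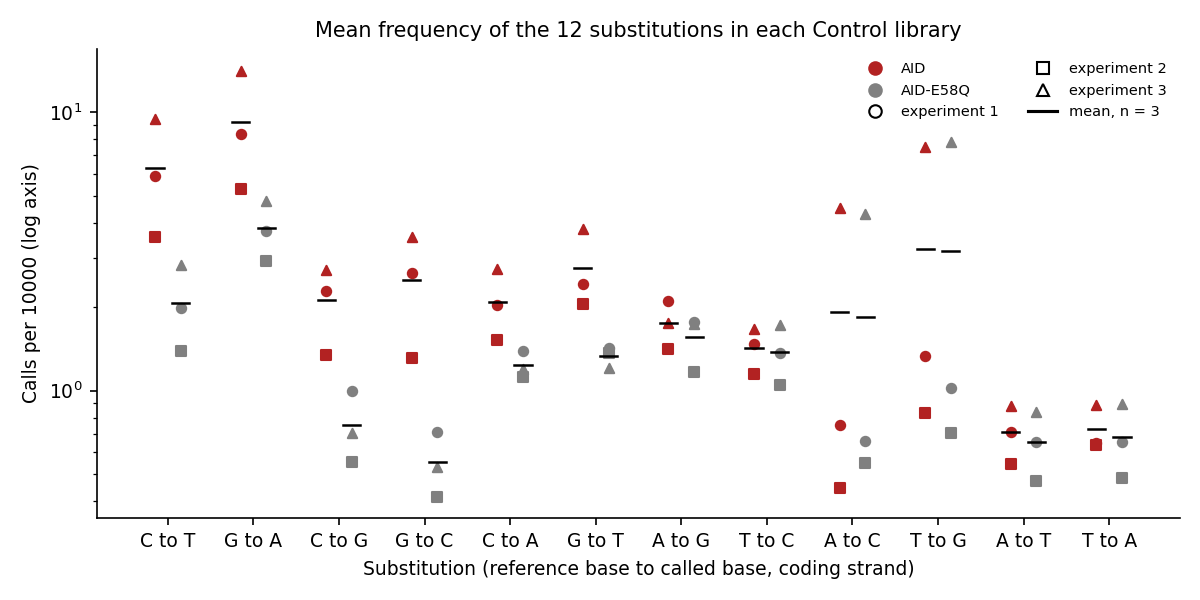
Mean frequency of each of the 12 substitutions per 10000 calls (log axis) in each Control library, with red for AID, grey for AID-E58Q, a marker for each experiment and a black bar for the mean of 3. The 6 substitutions at C and G are separated between the groups, while those at A and T overlap and the experiment 3 markers stand high in A to C and T to G.

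The mean hides how unevenly positions were hit. The log2 ratio of AID to AID-E58Q at the median position was 0.26 for C>G, 0.45 for G>C, 0.62 for C>T and 0.69 for G>A, against 1.47, 2.10, 1.56 and 1.19 for the means. The sequence around the C sorted the positions. WRCY positions carried 55.6, 28.8 and 101.2 substitutions per 10000 calls in the AID libraries of experiments 1, 2 and 3 and 5.74, 4.46 and 7.26 in the AID-E58Q libraries, a ratio of means of 10.6. WRC followed by a purine stood at 19.6 ± 9.98 against 6.11 ± 1.35, a ratio of 3.20. SYC stood at 4.58 ± 1.00 against 3.91 ± 0.814, where the groups overlapped (exact permutation p = 0.4). C:G positions outside these 3 classes stood at 8.08 ± 2.14 against 5.11 ± 0.806, a ratio of 1.58 with no overlap. Exact permutation gave p = 0.1 for each class without overlap, 0.225 adjusted over 9 classes.

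In the inactive form the motif made little difference, with 5.82 ± 1.40 substitutions per 10000 calls at WRCY and 4.65 ± 0.809 at the 359 C:G positions outside WRC. The WRCY positions are 8.45% of the C:G positions and held 65.3% ± 7.16 of the excess of AID over AID-E58Q at C:G. The 13 measured AGCT bases alone are 3.05% of them and held 49.99% ± 7.99. The SYC positions are 32.6% of them and held 0.989% ± 5.05. Within experiments 1, 2 and 3 their AID over AID-E58Q ratios were 1.12, 1.18 and 1.22.

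Of the 16 combinations of the bases before C, AGC had the highest frequency with AID, 78.6 ± 45.1 per 10000 calls over 25 positions against 6.13 ± 1.53 with AID-E58Q. The other 3 forms of WRC followed by excess, with TGC at 26.5 ± 14.7 against 9.47 ± 1.49, AAC at 20.2 ± 14.1 against 3.25 ± 0.945 and TAC at 17.3 ± 9.51 against 3.67 ± 1.30. The 11 AAC positions include the first base of the stretch, G45, at 0.576% with AID and 0.0308% with AID-E58Q. The place of AAC before TAC rests on that base. Of the forms outside WRC, 4 had no overlap between the groups. These were ATC at 11.6 ± 4.96 against 5.13 ± 1.65, CGC at 9.47 ± 3.15 against 4.12 ± 0.981, CAC at 8.01 ± 2.77 against 3.64 ± 0.766 and GGC at 10.6 ± 1.21 against 8.46 ± 0.834. The smallest excess was in CCC, at 2.47 ± 0.604 against 2.24 ± 0.409 over 39 positions. Within AGC, the AID mean was 121.7 per 10000 calls when T followed (13 positions), 33.4 when C followed (7), 25.0 when G followed (4) and 50.6 at the 1 position where A followed.

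**Figure D2:**
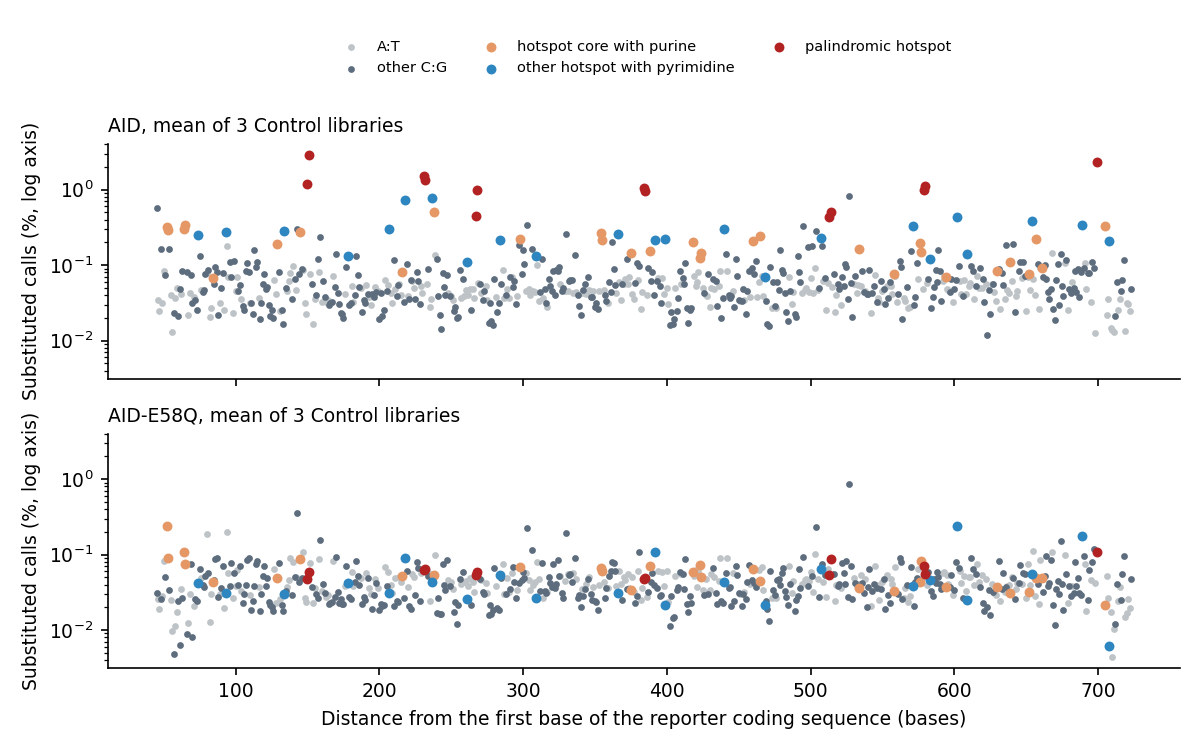
Percentage of calls with any substitution (log axis) at each of the 674 positions by distance from the first coding base, as the mean of the 3 AID libraries (top) and of the 3 AID-E58Q libraries (bottom). Palindromic hotspots are the AGCT bases, other hotspots with pyrimidine are the remaining WRCY positions, and hotspot cores with purine are WRC followed by A or G. With AID all 13 AGCT bases lie at or above 0.442%, while with AID-E58Q they lie at or below 0.109%, among the other positions.

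Each substitution was then tested at each position with edgeR's quasi-likelihood test on the counts of 2022 position and substitution pairs, with the coverage as offset and Benjamini-Hochberg adjustment over all of them. AID raised 44 (2.18% of those tested) at 27 positions (4.01%) and lowered 0 at an adjusted p under 0.05, and 202 had an unadjusted p under 0.05, of which 199 were higher with AID. All 44 were at C:G base pairs. On the C strand 21 were C>G, 16 C>T and 7 C>A, an order that turned with the experiment as a block (41, 60 and 35). WRCY held 35 of the 44 and AGCT 25, and all 13 measured AGCT bases had at least 1 call. Counted without a fit, 217 substitutions (10.7%) had all 3 AID libraries above all 3 AID-E58Q libraries and 29 (1.43%) had them all below. WRC followed by a purine held 2 of the 44 (C52G and C238T), G45 held 3, and SYC held 0.

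The number of calls leaned on single libraries. It was 0 without experiment 1, 6 without experiment 2, 3 to 14 without any single AID-E58Q library and 18 without AID of experiment 3. With the experiment as a block, which compares libraries within an experiment, AID raised 137 (6.78%) and lowered 1 (0.0495%), G432C, and all 44 were among the 137. Of the 137, 136 were at C:G and the other was T46G. With the block and without experiment 1, 2 or 3 AID raised 3.81%, 7.17% or 3.46% of the 2022, and 41, 44 or 41 of the 44 were called again.

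The AGCT base C151 had the largest share of substituted calls, 2.96%, 1.45% and 4.29% with AID and 0.0424%, 0.0443% and 0.0882% with AID-E58Q. G150, its partner across the palindrome, stood at 0.987%, 0.341% and 2.29% against 0.0678%, 0.0164% and 0.0579%. At both bases every AID library lay above every AID-E58Q library, and the order of the experiments was 3, 1, 2. That order held at all 13 AGCT bases for the highest and the lowest library, and at WRCY experiment 3 was highest at 36 of 36 positions. C151G was at 0.833%, 0.533% and 1.27% with AID and 0.0114%, 0.00492% and 0.0196% with AID-E58Q, a log2 fold change of 6.17 ± 0.78 (SE) with adjusted p = 5.70e-04 by edgeR. C151T was at 2.05%, 0.885% and 2.86% against 0.0212%, 0.0157% and 0.0602%, a log2 fold change of 5.89 ± 0.98 (SE) with adjusted p = 0.00408 by edgeR. The second changes CTG to TTG and keeps leucine, and the first makes it GTG, valine. C151A, at log2 fold change 2.63, did not pass (adjusted p = 0.179, edgeR) but did with the experiment as a block (adjusted p = 0.0373, edgeR).

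The second AGCT overlaps the stop codon that silences the reporter, TAG at 229 to 231 (codon 77), whose G is an AID target. Of the substitutions that base can take, G231A gives TAA, another stop, and G231C and G231T give the tyrosine codons TAC and TAT. G231A was at 1.08%, 0.496% and 1.66% with AID and 0.0181%, 0.0267% and 0.0484% with AID-E58Q, a log2 fold change of 5.11 ± 0.85 (SE) with adjusted p = 0.00408 by edgeR. G231C was at 0.248%, 0.0651% and 0.730% against 0.0105%, 0.00508% and 0.00735%, a log2 fold change of 5.48 ± 0.94 (SE) with adjusted p = 0.00408 by edgeR. G231T was at 0.103%, 0.0197% and 0.128% against 0.0219%, 0.0254% and 0.0214%, and did not pass (adjusted p = 0.403, edgeR). Calls that read a tyrosine codon made up 0.352%, 0.0848% and 0.858% with AID and 0.0306% ± 0.00182 with AID-E58Q. With AID this was 24.5%, 14.6% and 34.1% of all substituted calls at that base. At the other bases of the codon the groups overlapped. T229 stood at 0.0533% ± 0.0612 against 0.0566% ± 0.0586 and A230 at 0.0434% ± 0.0237 against 0.0579% ± 0.0352. Within experiments 1, 2 and 3 the AID over AID-E58Q ratios were 0.864, 0.717 and 0.997 at T229. At A230 they were 0.779, 0.806 and 0.719, lower with AID each time. C232, the partner C of this AGCT, stood at 1.34% ± 0.719 against 0.0648% ± 0.0319.

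Of the remaining AGCT bases, C580 (1.13% ± 0.619 with AID against 0.0547% with AID-E58Q), G384 (1.06% ± 0.679 against 0.0471%), G579 (0.998% ± 0.386 against 0.0706%), C268 (0.977% ± 0.488 against 0.0580%) and C385 (0.973% ± 0.486 against 0.0486%) lay close together. C514 (0.5001% ± 0.313), G267 (0.446% ± 0.320) and G513 (0.442% ± 0.220) were the lowest. These means differ by less than the SD over libraries within either set. G699, at 2.34% ± 1.48, rests on as few as 2077 calls against at least 40056 at the other 12 bases. At 2 of the 6 palindromes measured on both strands the C exceeded the G in all 3 AID libraries. C151 was 3.00, 4.25 and 1.88 times G150, and C268 was 3.08, 2.30 and 1.87 times G267. At the other 4 the ratio lay between 0.79 and 1.32 and its direction differed between libraries.

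**Figure D3:**
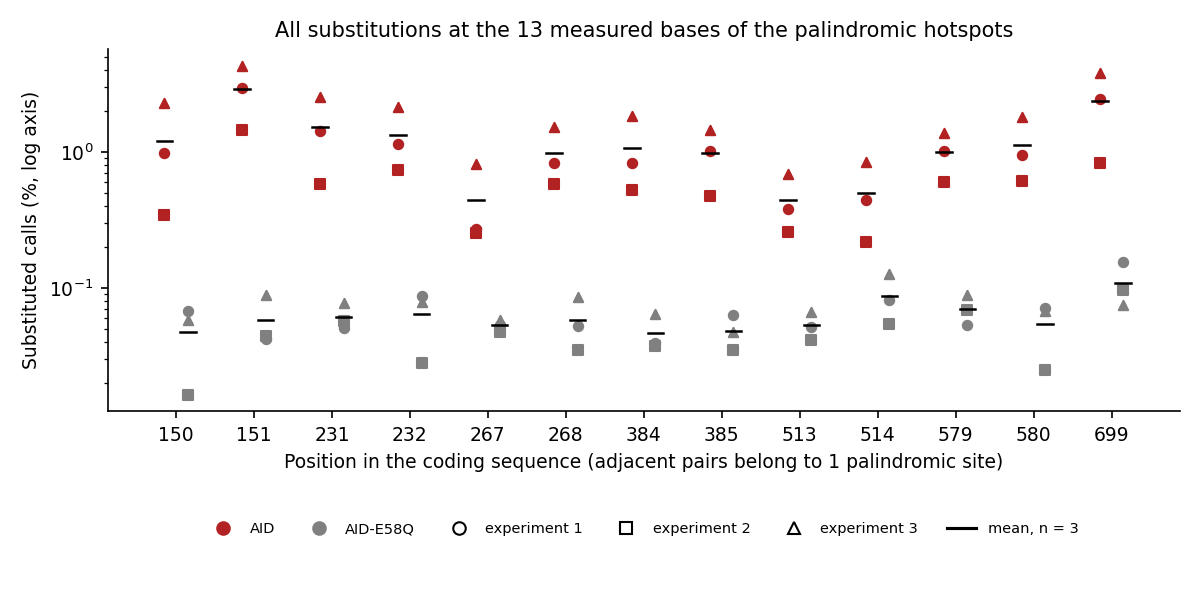
Percentage of calls with any substitution (log axis) at the 13 measured AGCT bases, named by position, in each Control library, with red for AID, grey for AID-E58Q, a marker for each experiment and a black bar for the mean of 3. The groups are apart at every base, with experiment 3 the highest and experiment 2 the lowest AID library throughout.

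The 20 substitutions with the largest fold change among the calls without overlap were 12 of C>G type, 8 of C>T type and 0 of C>A type on the C strand. All 20 lay in WRCY and 18 in AGCT. For the same excess, a fold change is larger over a lower background. At WRCY the AID-E58Q background was 0.791 ± 0.382 per 10000 calls for C>G and 3.53 ± 1.37 for C>T. G384C, which changes lysine AAG to asparagine AAC, was at 0.480%, 0.306% and 0.601% with AID and 0.00835%, 0.00821% and 0.00499% with AID-E58Q, a log2 fold change of 5.997 ± 0.83 (SE) with adjusted p = 0.00101 by edgeR. G150C was at 0.517%, 0.127% and 0.687% against 0.00737%, 0.00385% and 0.0101% (log2 fold change 5.93). At both bases the C>G type and the C>T type change differed by less than their SD, with G384A at 0.454% ± 0.377 beside G384C at 0.462% ± 0.148, and G150A at 0.610% ± 0.569 beside G150C at 0.444% ± 0.287. The remaining AGCT members of the 20 were G513C, G699C, C580G, G384A, C385G, C385T, C232T, G267C, C580T, G579C, G699A and G150A, with log2 fold changes from 4.50 to 5.14. Outside AGCT they were G708C and G237C. G708C had 0 calls in all AID-E58Q libraries and 0.0361%, 0.168% and 0.0983% with AID, at least 8.19-fold higher, taking 3 counts over the group. It rests on as few as 3382 calls so it is not among the positions with at least 10000 calls in every library. G237C was at 0.151%, 0.0944% and 0.184% against 0.00692%, 0.00130% and 0.00456%, a log2 fold change of 5.01 ± 0.96 (SE) with adjusted p = 0.00772 by edgeR.

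Among the 44 calls 26 changed an amino acid, 12 kept it, 1 (C261G) made a new stop codon, G231C removed the stop and G231A kept it. The 3 at G45 lie outside the complete codons measured. How often each effect occurs among all tested substitutions was not counted, so these numbers show no preference for any effect.

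The base that follows the C separated C>G from C>T. The frequencies below are per 10000 calls at the 66 WRC positions, on the C strand. When T followed (23 positions, AGCT among them), C>G stood at 24.4, 12.6 and 37.6 in the AID libraries of experiments 1, 2 and 3 and 1.37, 0.410 and 1.12 with AID-E58Q. When C followed (13 positions), C>G stood at 1.19, 0.451 and 1.41 with AID and 0.610, 0.280 and 0.548 with AID-E58Q, so that the groups overlapped. C>T before C stood at 18.7, 9.28 and 34.9 with AID against 5.05, 4.14 and 7.70 with AID-E58Q, with no overlap. Before T, C>T stood at 48.3 ± 28.7 against 2.34 ± 1.09. C>G thus held 34.3%, 35.3% and 28.8% of the AID excess before T and 4.17%, -0.54% and 2.38% before C. Of the 23 positions followed by T, 17 had a C>G call, and of the 13 followed by C, 0 had one (22 and 2 with the block). Position by position the excess of C>G before T ran from 0.0465% to 0.868%, and before C from -0.0019% to 0.0153%, with no overlap. The excess of C>T overlapped, from 0.0161% to 1.90% before T and from 0.0441% to 0.513% before C.

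**Figure D4:**
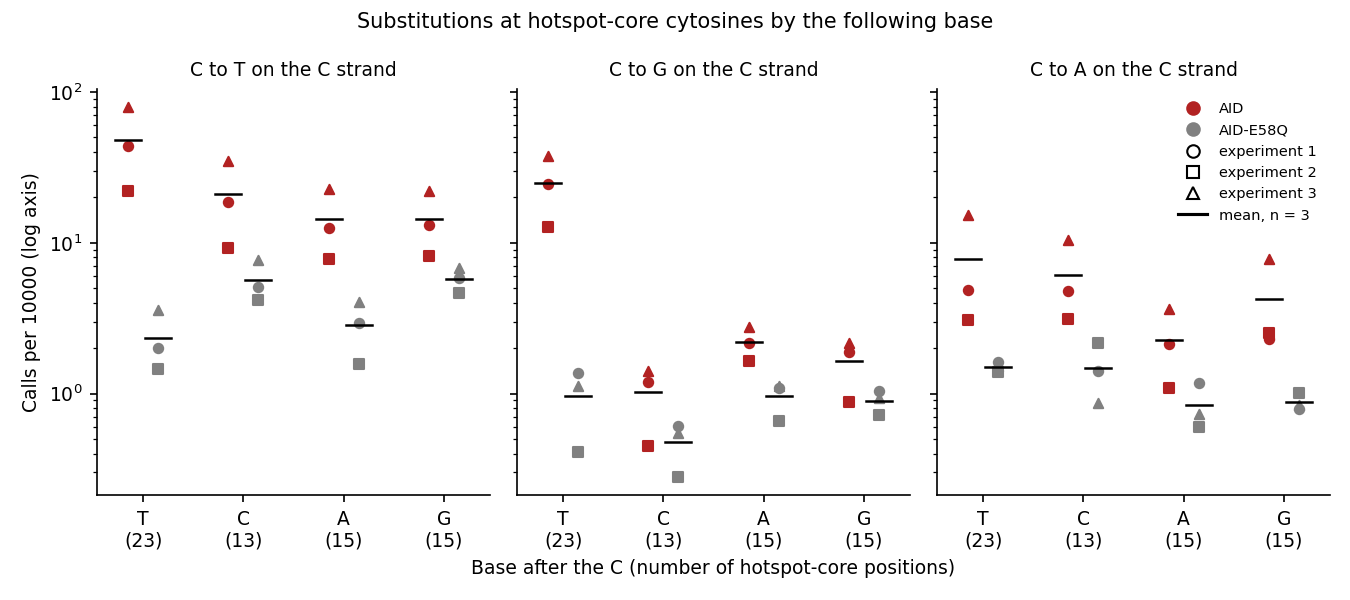
Frequency per 10000 calls (log axis) of C to T, C to G and C to A at the WRC positions of the C strand, split by the following base, in each Control library, with red for AID, grey for AID-E58Q, a marker for each experiment and a black bar for the mean of 3. C to G with AID is at 12.6 or more where T follows and at 2.75 or less elsewhere, while C to T is above AID-E58Q before every base.

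The windows of called WRCY positions outside AGCT show the contrast. Each is given on the coding strand with the substituted base in capitals, and where that base is G the following base of the C strand is the complement of the base on its left. The first 6 are followed by T and the last 2 by C.
G207, from position 200: cccctcaGttcacct
G237, from position 230: agctgaaGcaccccg
C261, from position 254: ccgactaCttcaagc
C309, from position 302: tgatgaaCttcgagg
C399, from position 392: gcaccaaCttcccct
G708, from position 701: tgtacaaGtaaggat
G134, from position 127: tacgaggGctttcag
G218, from position 211: acctacgGctccaag

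G207C was at 0.0804%, 0.0787% and 0.0993% with AID and 0.00739%, 0.00332% and 0.0100% with AID-E58Q, a log2 fold change of 3.60 ± 0.61 (SE) with adjusted p = 0.00408 by edgeR, and G207A was called too, at 0.180% ± 0.0995 against 0.0152%. C261G, from TAC to the stop codon TAG, was at 0.0479%, 0.0876% and 0.0444% against 0.00605%, 0.00239% and 0.00664% (log2 fold change 3.52, adjusted p = 0.0160, edgeR). C399G was at 0.114%, 0.00851% and 0.222% against 0.00991%, 0.00170% and 0.0116%, the only one of the 44 whose groups overlapped. At C309 only C309A was called, at 0.0133%, 0.00888% and 0.0767% against 0.00395% on average. Before C, the calls were not of C>G type: G218A was at 0.685%, 0.176% and 0.872% against 0.0538%, 0.0452% and 0.0943%, a log2 fold change of 3.16 ± 0.80 (SE) with adjusted p = 0.0469 by edgeR, and G134T, a C>A type change, was at 0.0821%, 0.0367% and 0.122% against 0.0112%, 0.00634% and 0.00538%. At G218 the excess of C>G type was 0.0054% beside 0.513% of C>T type.

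Before a purine (15 positions each) C>G stood at 2.18 ± 0.551 per 10000 calls against 0.958 ± 0.264 when A followed and 1.65 ± 0.679 against 0.895 ± 0.158 when G followed. C>T stood at 14.3 ± 7.58 against 2.85 ± 1.24 and 14.5 ± 7.03 against 5.79 ± 1.08. C238T, in AGC followed by A, was called at 0.400% ± 0.201 against 0.0314%, and C52G, in TGC followed by G, at 0.0262% ± 0.00477 against 0.00521%. C>A had its largest share of the excess before G (27.9% on average) and before C (24.5%), and 6.84% before T.

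Only 4 of the 44 calls had neither WRC nor the edge base G45. G495C, G501C and G501T lie in ATC followed by T, and C210A in TTC followed by A. The windows show the base in capitals on the coding strand.
G495, from position 488: agggcgaGatcaaga
G501, from position 494: agatcaaGatgaggc
C210, from position 203: ctcagttCacctacg
G495C was at 0.0472%, 0.0827% and 0.0821% with AID and 0.00423%, 0.00405% and 0.00363% with AID-E58Q, a log2 fold change of 4.11 ± 0.89 (SE) with adjusted p = 0.0188 by edgeR. G501C was at 0.0170%, 0.0624% and 0.0354% against 0.00145%, 0.00416% and 0.000934%, and C210A at 0.0524% ± 0.0179 against 0.00629%. In these 3 no AID library overlapped an AID-E58Q library. G45, read as AAC from the C strand, had all 3 of its substitutions called, with G45C at 0.287%, 0.0202% and 0.581% against 0.0147%, 0.00999% and 0.0187%. It is the outermost base of the stretch and lies where coverage may be held down.

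The stretch was split into 7 windows of 100 positions, the last one shorter. The AID over AID-E58Q ratio at C:G was highest in the second window, 4.90, where 4 AGCT bases lie, and between 1.80 and 2.71 in the other 6 windows. By the median over positions in place of the mean, the log2 ratio of the second window was 0.63, below those of the fourth (0.71), the sixth (0.65) and the last (0.68). At C:G outside WRC the ratio stayed between 1.36 and 1.54 in all 7 windows and at A:T between 0.989 and 1.10. WRCY positions stood at 27.1 ± 22.0 per 10000 calls with AID in the first window, which holds no AGCT, at 111.1 ± 65.4 in the second and at 82.0 ± 49.1 in the last. Median coverage of the windows in the Control libraries was 147541 calls in the second and 19978 in the last, and its part in the last value was not tested.

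**Figure D5:**
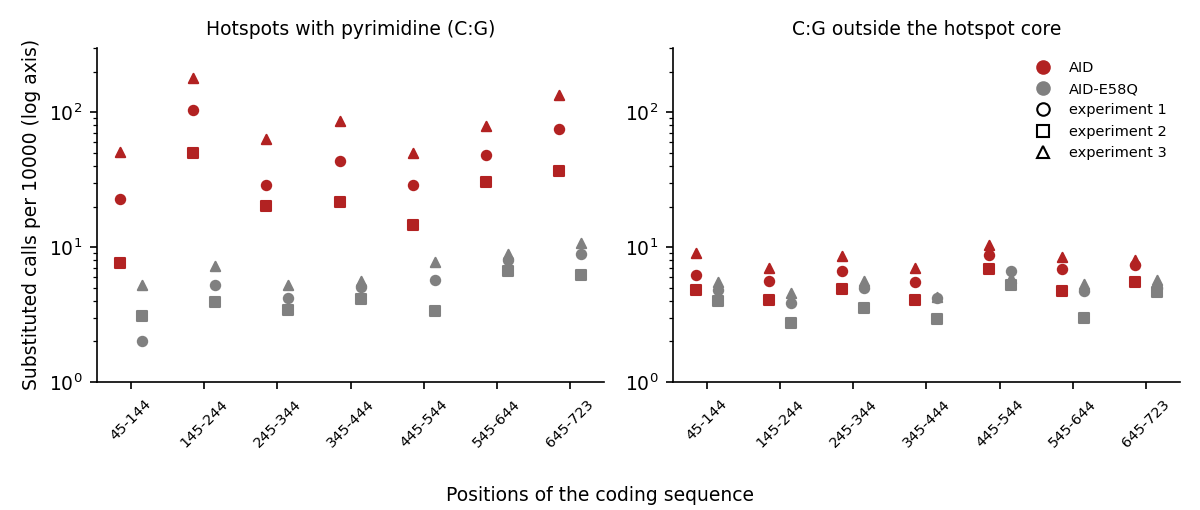
Substituted calls per 10000 (log axis) in 7 windows of the coding sequence for WRCY positions (left) and for C:G positions outside WRC (right) in each Control library, with red for AID, grey for AID-E58Q and a marker for each experiment. WRCY values with AID exceed those with AID-E58Q in every window and peak in the second, while outside WRC the ratio of AID to AID-E58Q stays between 1.36 and 1.54.

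The composition of the WRCY excess was set beside the other arms, where Ugi inhibits UNG or UNG is added. With endogenous UNG the excess was 62.0% ± 1.04 C>T, 29.3% ± 3.90 C>G and 8.76% ± 3.38 C>A over the 3 AID libraries. With Ugi it was 99.5% ± 0.928 C>T and 0.417% ± 0.553 C>G. With added UNG it was 31.0% ± 4.73 C>T, 55.3% ± 3.24 C>G and 13.7% ± 4.17 C>A. For C>T and C>G no Control library overlapped a library of either other arm (exact permutation p = 0.1, the smallest possible, 0.12 adjusted over 6 comparisons), while C>A overlapped between Control and UNG (exact permutation p = 0.3). The dependence on the following base recurred with added UNG, where C>G stood at 31.2, 21.1 and 69.6 per 10000 calls before T and at 0.778, 0.466 and 1.01 before C. With Ugi C>G stood at 1.80 ± 0.973 before T against 1.01 ± 0.249 with AID-E58Q.

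Whether the AID effect on single substitutions differed between arms was tested as an interaction in the same edgeR fit. By edgeR 0 passed against Ugi, with 115 at an unadjusted p under 0.05, 11 by DESeq2 and 7 by limma, and 0 passed against UNG, with 32 at an unadjusted p under 0.05, 1 by DESeq2 and 0 by limma. With the experiment as a block the AID effect was larger in Control than with Ugi for 15 substitutions (0.742%) and smaller for 1 (0.0495%). Of these 16, 13 were of C>G type, 11 lay in WRCY and 8 in AGCT. For C151G the log2 difference was 4.21 (SE 0.63, adjusted p = 0.00124, edgeR with block), with 0.880% ± 0.372 in Control AID and 0.0540% ± 0.00615 in Ugi AID. For G231C, which opens the stop codon, it was 4.52 (SE 0.79, adjusted p = 0.00342, edgeR with block), with 0.348% ± 0.344 against 0.0211% ± 0.0109. Without experiment 1 the blocked count against Ugi was 0.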

How the data were processed

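The deposited table gives, per library and position, the reads, the count of base calls over the Phred limit and the count of each of the 12 substitutions, per the file headers. SAMtools 0.1.11, Novoalign 2.07.04 and CASAVA 1.7 are named in the submitters' processing notes with no role, and how reads were aligned is not given in the sources used here. Fraction columns that the authors also deposited equalled the ratio of these counts within 1e-12, so the counts were used.

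Frequencies are substitution counts over passing calls, averaged over positions. Positions 700 to 704 were left out for low coverage. edgeR 4.0.16 (R 4.3.3, quasi-likelihood test, log coverage as offset) was fitted to all 18 libraries. DESeq2 1.42.0 and limma 3.58.1 served as alternatives. On simulated data for the Control comparison (2022 features, 200 changed), the fit recovered 14% of 4-fold and 73% of 16-fold changes with 5 false calls. The simulated libraries held no differences between experiments, so these figures may not carry over to the real ones. Excess is an AID library minus the mean of its arm's 3 AID-E58Q libraries.

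The titles number the experiments, and deviations of same-numbered Control libraries correlated (0.35, 0.28 and 0.64 over 1570 features). AID of experiment 1 also correlated with AID-E58Q of experiment 2 (0.18), and AID of experiment 2 with AID-E58Q of experiment 1 (0.22). Pairs of experiment 3 with experiment 1 or 2 lay between -0.45 and -0.37. Deviations from a mean of 3 libraries cancel within a group, so these negative values follow in part from the positive ones. The value within experiment 3 (0.64) was the largest. Experiments 1 and 2 were barely separated, so the block rests on the pairing by title. Substitutions named are the 20 calls with the largest fold change without overlap, those of the stop codon and the AGCT bases, and the 5 largest interactions in each direction. Others were named after their values were seen. Sites and classes were chosen with earlier results of these data known, and the split of substitutions by the following base after seeing the values.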

Additional observations from a re-analysis of the deposited data

Results flagged for a closer look

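Each result here is an AID effect that differed between arms by the interaction in the blocked edgeR fit. Against Ugi, the log2 difference was 5.39 for G513C (0.147% ± 0.0188 in Control AID and 0.0101% ± 0.00644 in Ugi AID, n = 3 each), 4.77 for G384C (0.462% ± 0.148 and 0.0230% ± 0.0201) and 4.63 for C268G (0.223% ± 0.0698 and 0.0122% ± 0.00628). All 3 are AGCT bases and C>G type changes. For G45T it was 4.64 against Ugi and 4.24 against UNG, with 0.0387% ± 0.0254 in Control AID, 0.00343% in Ugi AID and 0.00435% in UNG AID. G294T gave 5.92 against Ugi, but both Control groups were alike there (0.0141% with AID and 0.0129% with AID-E58Q), and the difference comes with 0.676% ± 0.577 in the Ugi AID-E58Q libraries. C261T gave -3.82, with 0.0267% ± 0.0176 in Control AID and 0.302% ± 0.372 in Ugi AID.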

How the results depend on the processing

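Of 243 recomputed frequencies and shares, 228 moved by less than the SD over experiments, and the 20 named substitutions kept their direction under every setting tried, with 328 of 414 recomputed values still past the threshold. The 44 higher calls became 137 with the experiment as a block (with 1 lower), 25 with only the 6 Control libraries fitted and 91 by DESeq2. They were 3 to 54 without a Control library and 0 to 48 without an experiment, and 3.81%, 7.17% and 3.46% of the 2022 with the block and without experiments 1, 2 and 3, where 0.0495% were lower without experiment 3. The interaction with Ugi had 15 higher and 1 lower with the block, 11 by DESeq2, 7 by limma, 8 with TMM factors, 1 with substitutions pooled, 0 to 5 without an experiment, 0 to 1 without a single library and 0%, 0.445% and 0.544% of those tested with the block and without experiments 1, 2 and 3 (0% to 0.0495% lower). That with UNG had 1 with the block, 1 by DESeq2 and 0% to 0.0989% of those tested with the block without an experiment. Taking the median over positions moved the log2 ratio to 0.26 for C>G, 0.62 for C>T, 0.69 for G>A, 0.45 for G>C, 0.38 for CpG and 0.63, 0.52, 0.71, 0.65 and 0.68 for C:G in windows 2, 3, 4, 6 and 7 along the reporter. Window 7 was 0.77 from all calls over all coverage and 0.71 without the end positions. The WRCY excess became 63.3% C>T, 20.2% C>G and 16.5% C>A by the median. Settings that combine the block with a left-out experiment or leave out a Ugi or UNG library were chosen after seeing the data. Depth limits the last window most, and the cause of these shifts was not tested.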

Other observations

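Within WRC followed by T, the second base after the C also sorted the positions. The split was made after seeing the values and was not tested. C>G had the larger excess than C>T at 7 of the 10 positions followed by TT (261, 267, 309, 384, 399, 609 and 708) and at 0 of the 13 followed by T and another base. At some of the 7, such as 309 and 384, the difference was smaller than the SD over libraries. With added UNG the counts were 9 of the 10 and 10 of the 13, so they hardly differed there. The excess of C>G over that of C>T was 1.28, 1.65 and 0.631 in the AID libraries of experiments 1, 2 and 3 before TT and 0.444, 0.409 and 0.431 before T and another base. With added UNG the ratios were 4.85, 3.86 and 1.97 against 2.55, 1.57 and 1.67, higher before TT in all 3 experiments.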
